A study of Mus musculus with 3 samples.

Results

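The genes described here encode the factors that start and extend protein synthesis on the cytosolic ribosome, together with enzymes and inhibitors that act on them. They were chosen by gene symbol alone, as every gene whose name begins with Eif1 to Eif6 or with Eef, leaving out the Eif2ak kinases and the named pseudogenes. Of 55573 genes listed, 67 met the rule, and 66 of these were protein coding in GENCODE M21. The remaining one, Eif2c5, was annotated as a long intergenic non-coding RNA, and its symbol belongs to an older naming of the Argonaute genes, and it was listed at 0 in all libraries. Transcript levels were measured by UMI-RNAseq, in which each fragment carries a random molecular tag so that copies made by PCR can be removed. The study used these levels to pick transcripts of different abundance for a fluorescence in situ hybridization method. The data were 3 libraries (libraries 1, 2 and 3) of NIH3T3, an immortalized mouse embryonic fibroblast line, all untreated, with no genetic change or added agent in the labels and grown in DMEM with fetal bovine serum, so that only 1 condition was measured. Whether the libraries came from separate cultures was not stated, so the spread between them may be technical.

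In initiation, eIF2 brings the initiator tRNA to the small ribosomal subunit, eIF3 holds the complex together, and the eIF4 factors bind the mRNA cap and unwind the leader. eIF1, eIF1A, eIF5 and eIF5B then act in start codon selection and subunit joining. In elongation, eEF1A delivers each aminoacyl-tRNA, eEF1B recharges eEF1A with GTP, and eEF2 moves the ribosome along the mRNA. Several factors exist as paralogs, which are related genes for the same or a similar protein, and growing fibroblasts depend on this machinery for protein output.

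Levels of paralogs can be compared only where reads can be told apart, so the start of the coding sequence is printed for pairs on which the comparisons turn. Sequences were read from GRCm38 transcripts of GENCODE M21, 5′ to 3′ on the gene's own strand, with capitals marking the bases that differ or have no partner within the pair. Over 75 bases from the start codon, Eef1a1 at chr9:78480580-78480654 (minus strand) and Eef1a2 at chr2:181155332-181155406 (minus strand) differed at 13 positions.
Eef1a1: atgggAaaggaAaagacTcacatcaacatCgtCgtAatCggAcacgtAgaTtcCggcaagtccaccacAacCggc
Eef1a2: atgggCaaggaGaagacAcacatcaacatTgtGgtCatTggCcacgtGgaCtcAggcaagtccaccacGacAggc
Over their whole coding sequences these genes were 80.1% identical, with 23 nt as the longest identical run.

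Eif4a1, which starts within chr11:69670745-69672301 (minus strand), and Eif4a2, within chr16:23107792-23108721 (plus strand), each spread the stretch shown over 3 exons and differed in 29 aligned columns. Their coding sequences were 78.0% identical, with no identical run longer than 20 nt.
Eif4a1: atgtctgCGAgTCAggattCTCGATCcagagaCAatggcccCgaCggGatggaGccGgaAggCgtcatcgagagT
Eif4a2: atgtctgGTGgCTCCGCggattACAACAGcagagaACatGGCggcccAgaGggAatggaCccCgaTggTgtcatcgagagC
Eif5a, at chr11:69919241-69919315 (minus strand), and Eif5a2, at chr3:28782052-28782126 (plus strand), differed at 20 of 75 positions and were 72.7% identical over the coding sequence.
Eif5a: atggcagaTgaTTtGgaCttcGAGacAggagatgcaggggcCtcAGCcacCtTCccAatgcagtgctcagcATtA
Eif5a2: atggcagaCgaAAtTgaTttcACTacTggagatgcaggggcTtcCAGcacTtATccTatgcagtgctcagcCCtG

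A different case was Eif4a-ps4, a processed pseudogene of Eif4a1 that the rule left out. In 1218 aligned coding bases it had 1 mismatch to Eif4a1 (99.9% identity), and the stretch that holds it is shown because identical stretches cannot be told apart by their reads. Eif4a1 is read within chr11:69668697-69669095 (minus strand, 2 exons) and Eif4a-ps4 at chr1:60704428-60704502 (plus strand), both from coding base 497.
Eif4a1: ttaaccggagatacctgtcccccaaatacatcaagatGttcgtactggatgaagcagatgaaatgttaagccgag
Eif4a-ps4: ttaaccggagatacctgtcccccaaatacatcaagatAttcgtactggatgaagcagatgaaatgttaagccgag

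The libraries held 14423209, 13959723 and 14307241 fragments. The labels name a fibroblast line, but their extraction text speaks of retina, so marker lists were read in the same libraries. All 12 fibroblast markers reached a mean of 1 FPKM (fragments per kilobase of gene length per 1000000 fragments), from Fn1, a matrix protein, at 4377 ± 86.1 (SD, n = 3) to S100a4 at 2.97 ± 0.208. None of 12 retina markers did, the highest being Rcvrn at 0.363 ± 0.225 and the lowest Nrl at 0, and the summed retina list was 1.10, 1.64 and 1.04 FPKM in libraries 1, 2 and 3. None of 10 lymphoid markers did either, with Cd79a highest at 0.145 ± 0.0841 and Cd3e at 0, and their sums were 0.243, 0.568 and 0.252 FPKM. By these lists the libraries matched the fibroblast label.

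Transcripts of most translation factors were abundant. A mean of at least 1 FPKM was reached by 61 of the 67 genes, against 23.2% of all genes listed and 49.2% of protein-coding genes. At least 10 FPKM was reached by 58 (14.8% of all genes and 35.6% of protein-coding genes), and at least 100 FPKM by 29 (2.18% and 5.21%). The median of the 67 mean levels was 77.4 FPKM, and among the 61 genes at 1 FPKM or more it was 89.5 FPKM, beside 21.9 FPKM for all protein-coding genes at that level. No test was made of these shares. The 5 genes listed at 0 were Eef1a2, Eif2s3y, Eif4e1b, Eif4e3 and Eif2c5. A floor of 3 fragments for them was 0.0827 to 0.221 FPKM, depending on gene length and library (counting error only). The upper ends of 95% intervals for these counts of 0 lay higher, at 0.102 to 0.272 FPKM. Together the factors took 2.65% ± 0.0201 of all fragments (SD, n = 3), of which Eef1a1 alone held 32.0%, and Eef1a1 with Eef2 47.8%.

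**Figure D1:**
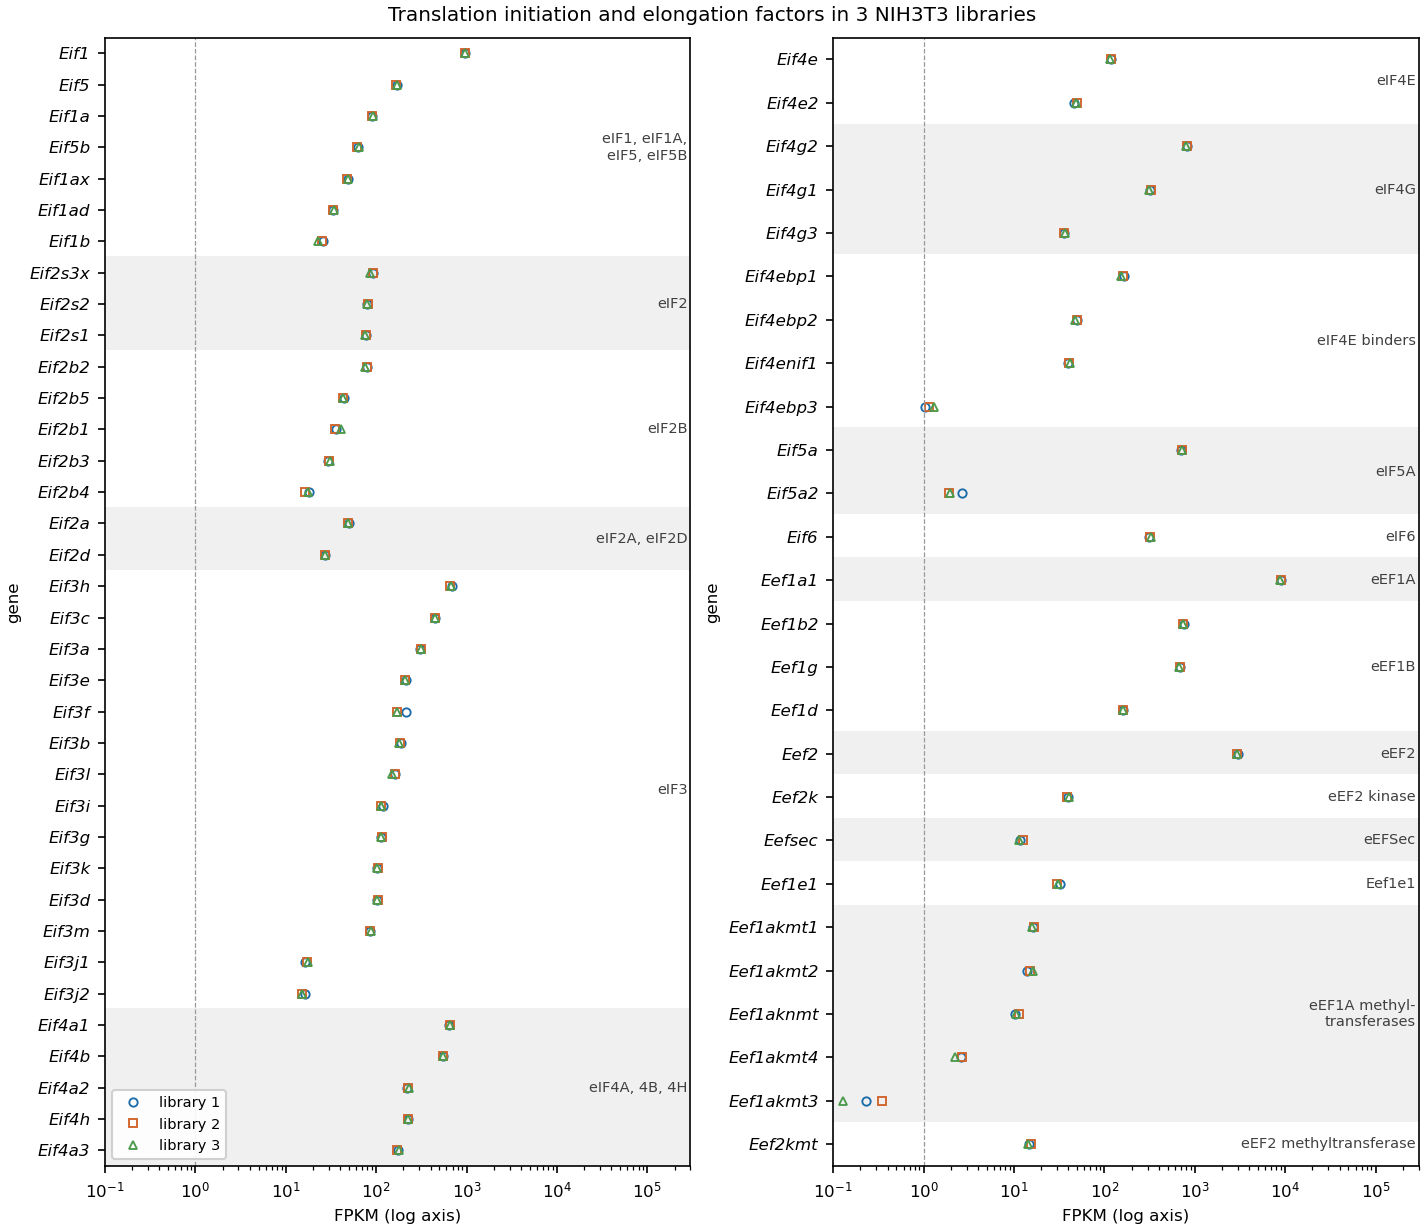
FPKM of each gene in each library on a log axis, grouped by complex, with 1 symbol per library and a dashed line at 1 FPKM. The 5 genes listed at 0 are not drawn; the levels run from Eef1akmt3 at 0.234 FPKM to Eef1a1 at 8927 FPKM, and for most genes the symbols lie on each other.

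Eef1a1 and Eef2 held the highest levels of the 67 genes. Eef1a1, which encodes the eEF1A of most tissues, stood at 9017, 8912 and 8851 FPKM in libraries 1, 2 and 3 (mean 8927 ± 83.8), rank 2 among 12905 genes at 1 FPKM or more. Eef2, the translocation factor, stood at 2994, 2938 and 2917 FPKM (mean 2949 ± 39.7, rank 9). Both were highest in library 1 and lowest in library 3, and the range of Eef1a1 lay far above that of Eef2. Within libraries the level of Eef1a1 was 3.03 ± 0.0127 times that of Eef2. Eef1a2, the paralog known from neurons and muscle, was listed at 0 in every library. With a floor of 3 fragments per library in its place, the ratio per length was 90345, 86420 and 87973 in libraries 1, 2 and 3. These sizes are set by the floor and are no lower bounds. On the log2 scale the mean difference from that floor was 16.43, or 15.51 when lengths of the longest isoforms were used.

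The eEF1B complex, the exchange factor for eEF1A, was uneven in its subunit transcripts. Eef1b2, a subunit with exchange activity, stood at 758, 735 and 743 FPKM, and Eef1g, the structural subunit, at 684, 679 and 667 FPKM. Eef1d, the other exchange subunit, stood lower at 159, 159 and 162 FPKM. With the deposited lengths no library ranges overlapped within this complex, and Eef1b2 was 1.10 times Eef1g, but with the longest isoforms the order of these genes turned to 0.869 times. Eef1b2 was 4.67 ± 0.0983 times Eef1d. Eef1a1 in turn was 12.0 ± 0.133 times Eef1b2. Sequence shared with other genes was counted in 75-nt words, every stretch of 75 nt in a gene's transcripts. Eef1g shared 38.0% of its words with other annotated genes, mostly with Gm4366, so part of its level is uncertain.

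The remaining Eef genes with fragments, most of which act on the elongation factors, were much lower. Eef2k, the kinase that inhibits eEF2, had a mean of 39.9 ± 1.09 FPKM. Eefsec, which delivers selenocysteyl-tRNA, had 11.9 ± 0.680 FPKM. Eef1e1, a scaffold protein of the multisynthetase complex rather than an elongation factor in the strict sense, had 30.9 ± 1.33 FPKM. Of the methyltransferases of eEF1A, Eef1akmt1 had 16.3 ± 0.456, Eef1akmt2 15.1 ± 1.07, Eef1aknmt 10.7 ± 0.575 and Eef1akmt4 2.47 ± 0.234 FPKM. The last of them, Eef1akmt3, was the only gene with fragments that stayed below 1 FPKM, at 0.229, 0.342 and 0.129 FPKM from 9, 13 and 5 fragments. The methyltransferase of eEF2, Eef2kmt, had 14.8 ± 0.642 FPKM.

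Among the start codon factors, Eif1, which guards start codon selection, was highest at 963, 950 and 963 FPKM (mean 959 ± 7.44). Its paralog Eif1b stood at 25.7, 25.2 and 22.8 FPKM, far below in each library, so that Eif1 was 39.1 ± 2.66 times Eif1b. eIF1A, the scanning factor, has a pair of genes, of which Eif1a stood at 89.5, 89.6 and 91.8 FPKM and the X-linked Eif1ax at 49.1, 47.6 and 49.2 FPKM. Eif1ax was thus 0.539 ± 0.00928 times Eif1a. Eif5, the GTPase activator of eIF2, had 168 ± 2.67 FPKM and was 2.66 ± 0.0190 times Eif5b, the subunit-joining GTPase, at 63.1 ± 1.43 FPKM. Eif1ad, named for its eIF1A-like domain, had 33.6 ± 0.864 FPKM.

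The 3 subunit transcripts of eIF2 lay close together. Eif2s3x, for the gamma subunit that binds GTP and initiator tRNA, stood at 91.5, 92.1 and 84.8 FPKM. Eif2s2, for the beta subunit, stood at 80.1, 82.1 and 80.0 FPKM, and Eif2s1, for the alpha subunit that stress kinases phosphorylate, at 77.7, 76.8 and 75.4 FPKM. The library ranges did not overlap, yet highest and lowest differed only 1.17-fold ± 0.0387. This closeness held for the deposited lengths: with the longest coding isoform, Eif2s2 came to 87.5, Eif2s3x to 44.8 and Eif2s1 to 41.1 FPKM. The Y-linked gamma gene Eif2s3y was listed at 0 in all libraries. Eif2s3x was 559, 545 and 514 times the floor of 3 fragments for Eif2s3y in libraries 1, 2 and 3. Eif2s3x itself shared 34.2% of its words with Gm2223, while Eif2s3y shared none with any gene.

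eIF2B, which recharges eIF2 with GTP, had 4 of 5 subunits below every eIF2 subunit with fragments, and spread further. Eif2b2 stood at 78.9, 78.5 and 74.8 FPKM and Eif2b5, for the catalytic subunit, at 44.5, 43.4 and 43.2 FPKM. Eif2b1 followed at 36.3, 34.9 and 40.9, Eif2b3 at 29.2, 30.1 and 30.9, and Eif2b4 at 17.9, 16.2 and 17.6 FPKM. No neighbours in this order overlapped, and Eif2b2 was 4.50 ± 0.298 times Eif2b4. Of the factors that can carry initiator tRNA outside eIF2, Eif2a had 49.2 ± 0.822 FPKM and Eif2d 27.3 ± 0.0845 FPKM.

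eIF3, the largest initiation factor, had 14 subunit genes with a 43.1-fold ± 1.33 span between the highest and the lowest. Eif3h was highest at 686, 663 and 677 FPKM, ahead of Eif3c at 448, 451 and 443 and Eif3a, the core scaffold, at 308, 316 and 313 FPKM. With the deposited lengths these 3 stood apart from each other and from the rest in every library, but with the longest coding isoform Eif3e came to 312 FPKM, above Eif3c at 211 and Eif3a at 144 FPKM. The middle of the order held Eif3e at 209 ± 2.91, Eif3f at 184 ± 26.2, Eif3b at 183 ± 6.73 and Eif3l at 158 ± 6.19 FPKM. Below them came Eif3i at 116 ± 4.06, Eif3g at 114 ± 2.26, Eif3k at 104 ± 1.45, Eif3d at 104 ± 1.06 and Eif3m at 86.3 ± 1.69 FPKM. Of 13 neighbouring pairs in this order, 5 had overlapping library ranges: Eif3e with Eif3f, Eif3f with Eif3b, Eif3i with Eif3g, Eif3k with Eif3d, and Eif3j1 with Eif3j2.

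The lowest eIF3 genes encode the loosely bound j subunit. Eif3j1 stood at 16.2, 17.0 and 17.7 FPKM and Eif3j2 at 16.5, 15.3 and 15.3 FPKM, with the order reversed in library 1. The log2 ratio of Eif3j1 over Eif3j2 was 0.11 as deposited and -0.74 with the longest isoforms. These genes differed by 2 mismatches in 786 aligned coding bases, and 87.4% of the words of Eif3j2 also occurred in Eif3j1, so their separate levels are uncertain. Without them the span of eIF3 was 7.83-fold ± 0.247. Eif3d shared 34.2% of its words with the antisense gene Gm17638, and the library kit named in the labels does not mark strand.

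**Figure D2:**
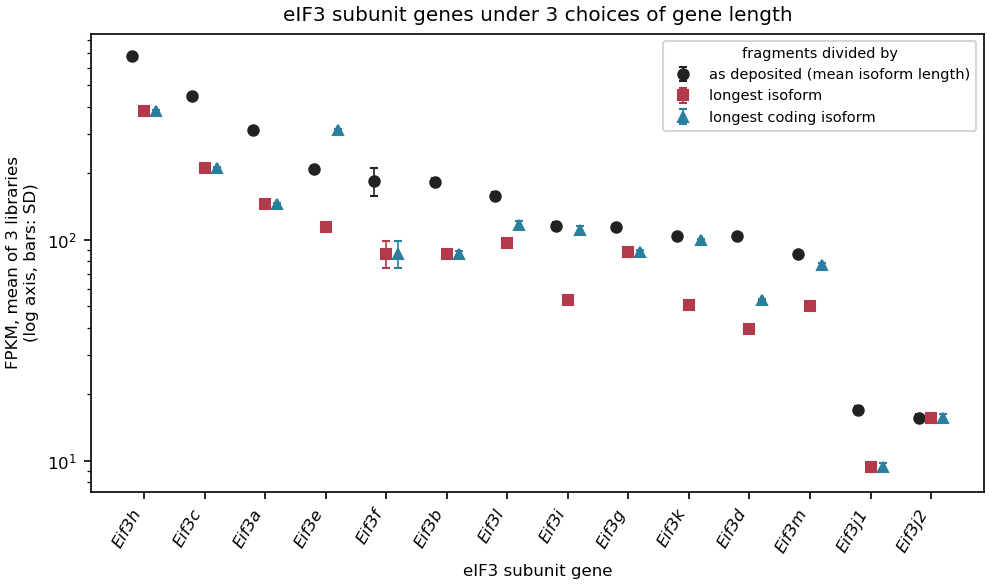
Mean FPKM of the eIF3 subunit genes on a log axis with SD over 3 libraries, for the deposited lengths, the longest isoform and the longest coding isoform. Eif3e went from 209 FPKM as deposited to 114 with the longest isoform and 312 with the longest coding isoform, where it passes Eif3c and Eif3a, while Eif3h stayed highest.

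In cap binding and unwinding, the helicase genes of the eIF4A family were ordered alike in each library. Eif4a1 stood at 642, 651 and 653 FPKM, Eif4a2 at 222, 224 and 230 FPKM, and Eif4a3, which encodes the helicase of the exon junction complex, at 174, 172 and 177 FPKM. Eif4a1 was 2.88 ± 0.0348 times Eif4a2 and 3.72 ± 0.0577 times Eif4a3, log2 ratios of 1.53 and 1.90. These ratios fell to 1.15 and 1.25 with the longest isoforms, but rose to 1.99 and 2.09 with the longest coding isoforms. The pseudogene Eif4a-ps4 was listed at 92.7 ± 0.194 FPKM, the highest of 10 named pseudogenes, of which 3 reached 1 FPKM and Eif1-ps3 was at 0. It shared 93.4% of its words with Eif4a1, and adding its fragments to Eif4a1 gave log2 ratios of 1.76 over Eif4a2 and 2.13 over Eif4a3. The helicase cofactors Eif4b and Eif4h had 546 ± 3.20 and 224 ± 0.942 FPKM, and Eif4b was 2.44 ± 0.00941 times Eif4h, or 1.56 times with the longest isoforms.

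Of the cap-binding genes, Eif4e stood at 120, 117 and 116 FPKM and Eif4e2, whose product competes for the cap and represses translation, at 46.4, 49.9 and 48.0 FPKM. Eif4e was 2.45 ± 0.115 times Eif4e2, a log2 ratio of 1.29 that fell to 0.33 with the longest isoforms. Eif4e3 and Eif4e1b were listed at 0 in all libraries. Eif4e was 1446, 1375 and 1388 times a floor of 3 fragments for Eif4e3 in libraries 1, 2 and 3. The mean log2 difference from this floor was 10.45, or 8.69 with the longest isoforms. The exons of Eif4e3 overlapped another gene, Gm20696, over 14.8% of their bases.

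The scaffold genes of the eIF4G family depended on the length used. Eif4g2, whose product lacks the eIF4E-binding region, stood at 811, 813 and 798 FPKM, Eif4g1 at 316, 327 and 315 FPKM, and Eif4g3 at 35.9, 36.1 and 36.3 FPKM. Eif4g1 was 8.83 ± 0.199 times Eif4g3. Eif4g2 was 2.53 ± 0.0430 times Eif4g1 as deposited, a log2 ratio of 1.34, but its deposited length was 1316 nt, the mean over 14 isoforms, and with the longest isoforms the log2 ratio was -0.083. Which of the pair was higher per length is therefore not settled by these values. Against the cap-binding gene, Eif4g1 was 2.71 ± 0.0733 times Eif4e, or 4.07 times with the longest isoforms. Eif4a1 was 5.52 ± 0.138 times Eif4e, or 10.3 times with the longest coding isoforms. With the longest isoforms of any kind, the levels were 200 FPKM for Eif4a1 and 34.6 FPKM for Eif4e.

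The inhibitors that compete with eIF4G for eIF4E were led by Eif4ebp1. It stood at 164, 163 and 154 FPKM and Eif4ebp2 at 49.9, 49.2 and 47.9 FPKM, so that Eif4ebp1 was 3.27 ± 0.0504 times Eif4ebp2. Both together were 1.78 ± 0.0318 times Eif4e, or 4.12 times with the longest isoforms. Eif4ebp3 was near the limit of detection at 1.17 ± 0.145 FPKM from 37 fragments in all. It shared 64.2% of its words with the gene AC115631.1, and 67.3% of its exon bases overlapped exons on the same strand. Its level is therefore uncertain, and could be too high or too low. Eif4enif1, which carries eIF4E into the nucleus, had 40.5 ± 1.11 FPKM.

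Eif5a, which encodes the hypusine-bearing factor that helps ribosomes past difficult peptide bonds, stood at 709, 714 and 720 FPKM. Eif5a2 stood at 2.65, 1.92 and 1.95 FPKM and shared no words with another gene. Eif5a was 268, 371 and 370 times Eif5a2 in libraries 1, 2 and 3 (mean 336 ± 59.3), with library 1 apart from the others. Eif6, which keeps free large subunits from joining, had 322 ± 7.04 FPKM.

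Over all 14 paralog pairs compared, the first-named gene was higher in all 3 libraries in 12, lower in all 3 in 1 (Eif1ax over Eif1a), and different between libraries in 1 (Eif3j1 over Eif3j2). In a two-sided exact permutation test that flips the sign of each library's log2 ratio, p was 0.25 for 13 pairs (0.269 after Benjamini-Hochberg adjustment over the 14) and 0.5 for Eif3j1 over Eif3j2. With 3 libraries p cannot go below 0.25, so no pair could pass 0.05. In size, 10 of the mean log2 ratios exceeded 1.5 with the deposited lengths, while their SD over libraries was at most 0.27. The length used moved some ratios by more than that SD. With the longest isoforms, Eif4a1 came to 1.15 over Eif4a2 and 1.25 over Eif4a3, both below 1.5. For pairs with a gene at 0 the size rests on the floor: with 1 FPKM added to both genes the log2 ratio was 13.12 for Eef1a1 over Eef1a2, 6.89 for Eif4e over Eif4e3 and 6.50 for Eif2s3x over Eif2s3y.

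**Figure D3:**
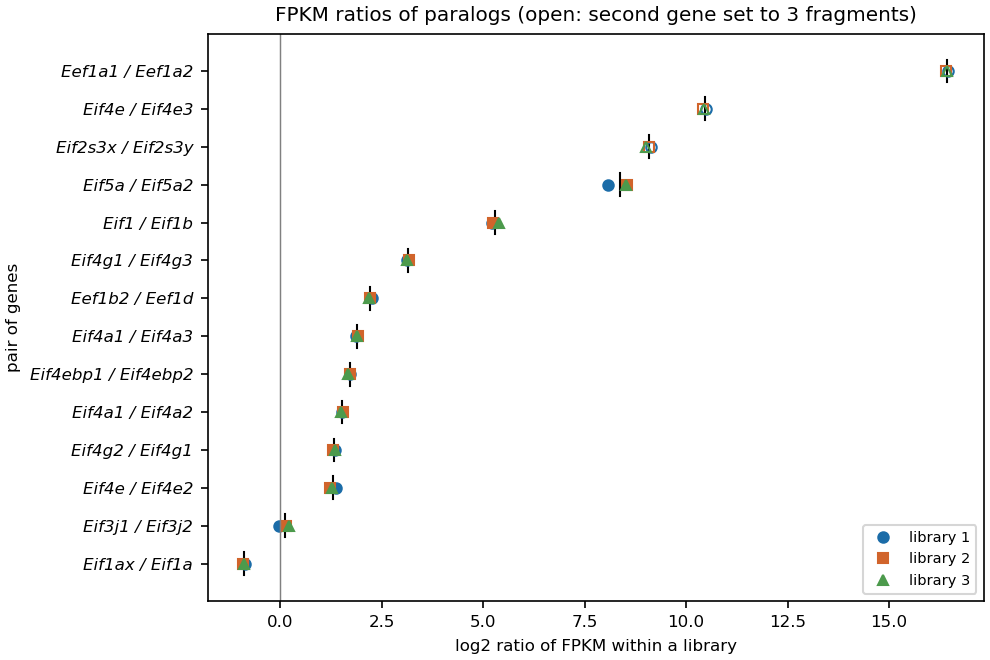
Log2 ratio of FPKM within each library for 14 pairs of genes, with a bar at the mean and open symbols where the second gene was set to 3 fragments. The means of the 3 pairs with open symbols lie between 9.07 and 16.43, the mean of Eif1ax over Eif1a lies at -0.89, and Eif3j1 over Eif3j2 straddles 0.

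Levels differed little between libraries. The median coefficient of variation (CV) of the 61 genes at 1 FPKM or more was 1.98%, with 51 under 5% and 3 at 10% or more (Eif3f, Eif4ebp3 and Eif5a2). The shares of all genes within these CV limits were not computed. Counting error falls as fragments increase, so a low CV is no trait of these factors in itself. To set this against counting error, the fragments behind each FPKM were recovered and compared with the library totals by a chi-square with a limit of 5.99. Of 62 genes tested, 9 exceeded it (14.5%), against 9.22% of all 14580 genes tested. These shares were not matched for depth. With at least 100 fragments in all, 9 of 60 exceeded it, beside 10.1% of all genes. The 9 were Eef1a1, Eef2, Eif2s3x, Eif3b, Eif3f, Eif3l, Eif4ebp1, Eif4g1 and Eif5a2. Of these, 7 were highest in library 1, a share that was not computed for all genes over the limit. The median over all genes at 1 FPKM or more was also highest in library 1, at 17.6 FPKM beside 17.4 FPKM in libraries 2 and 3. Being highest in library 1 is therefore not read as a trait of these factors. With a library left out, the limit was the one for 1 degree of freedom at the same 5% by chance, and not 5.99. Without library 1 the count was 5, beside 6.80% of all genes. Without library 2 or library 3 it was 8, beside 8.85% and 8.7% of all genes. Not all of these genes were among the 9: Eif2b1 entered without library 1, and Eef1b2, Eif3a and Eif3h without library 3.

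The largest of these departures was Eif3f, at 214, 168 and 170 FPKM with a chi-square of 126. It shared no 75-nt word with another annotated gene. Eif5a2, with a CV of 19.0%, was also high in library 1 alone. For Eef1a1 and Eef2 the CV was 0.939% and 1.35%, small values that still passed the limit because counting error at their depth was smaller, 0.288% for Eef1a1.

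**Figure D4:**
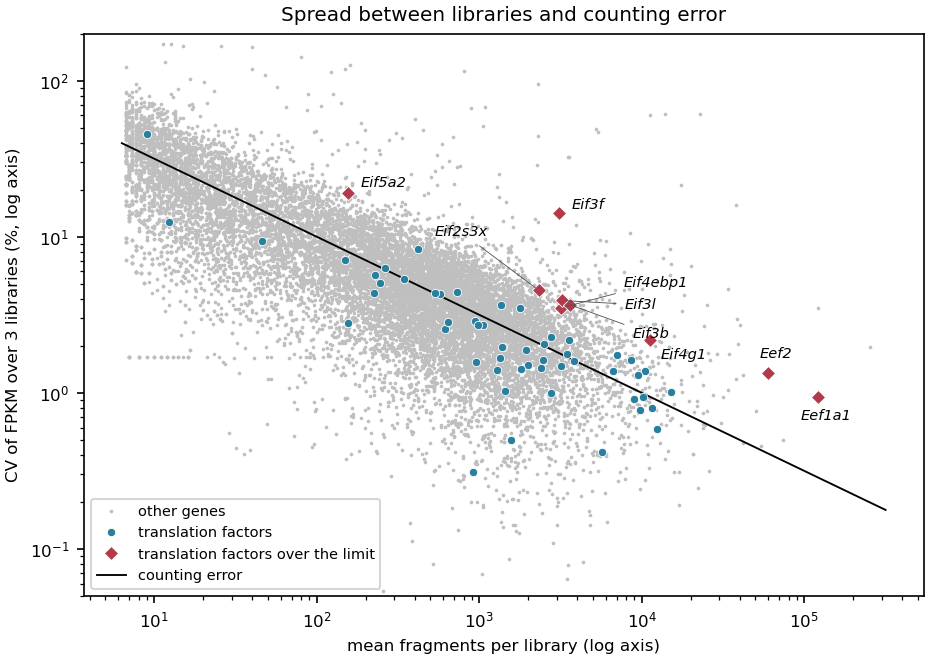
CV of FPKM over 3 libraries against mean fragments per library for genes with at least 20 fragments in all, both on log axes, with the line expected from counting alone. Among translation factors over the limit, Eif5a2 (CV 19.0%) and Eif3f (14.2%) have the highest CVs, and Eef1a1 and Eef2 pass it at CVs of 0.939% and 1.35%.

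Some of these genes share sequence with others. Of the 67 genes, 25 shared no 75-nt word with another annotated gene, 53 shared under 10% and 9 shared 25% or more, among them Eef1a1 with 26.6% (14 other genes) and Eif4a1 with 25.4%. How reads mapping to several places were treated is not given in the sources used here. As a reference chosen after its value was seen, Gapdh, a glycolytic enzyme gene whose words were shared to 22.6% with 121 genes, was listed at only 29.3 ± 0.266 FPKM, and Rpl24, shared to 50.3%, at 1.08 ± 0.150 FPKM. The part of shared sequence in the levels above was not tested.

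The partners of these factors in protein synthesis were read from lists. All 20 cytosolic aminoacyl-tRNA synthetases reached 10 FPKM, with a median of 180 FPKM, from Rars at 368 ± 1.46 to Farsa at 30.3 ± 0.672. The 89 cytosolic ribosomal protein genes had a median of 523 FPKM, with 85 at 1 FPKM or more, Rplp0 highest at 2744 ± 48.4 and Rpl10l at 0. Of 5 genes for poly(A)-binding proteins and their partners, all above 10 FPKM, Pabpc1, which joins the poly(A) tail to eIF4G, led at 2557 ± 12.2 and Paip2b was lowest at 54.6 ± 1.29. Termination and recycling genes reached 1 FPKM in 6 of 7 cases, with a median of 32.9 FPKM, from Gspt1, for the release factor eRF3a, at 138 ± 4.61 to its paralog Gspt2 at 0.

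Regulators of the factors were read in the same way. All 9 genes of eIF2 phosphorylation and its response were above 10 FPKM, with a median of 37.7 FPKM, from Atf4, the transcription factor translated in stress, at 375 ± 6.09 to the kinase gene Eif2ak3 at 14.1 ± 0.887. In the list of mTORC1 and MNK control, 11 of 12 genes reached 10 FPKM, with a median of 35.7 FPKM, from the activator Rheb at 67.6 ± 2.03 to Mlst8 at 5.18 ± 0.579. The 8 genes that modify eIF5A and eEF2 had a median of 11.1 FPKM, from Dhps, the enzyme of the initial step of hypusine synthesis, at 49.4 ± 0.861 to Dph7 at 1.28 ± 0.153. Of 9 mitochondrial translation factors, 6 reached 10 FPKM, with a median of 12.2 FPKM, from Tufm, the mitochondrial counterpart of eEF1A, at 53.5 ± 1.92 to Mtrf1 at 1.65 ± 0.168. Atf4 was the highest gene of these 4 lists, far below Eef1a1 and Eef2.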

How the data were processed

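Total RNA of NIH3T3 cells was made into 3 libraries and sequenced with 150 nt paired reads. According to the methods and submitters' notes, tags were found with UMI-tools 1.0.0, reads were mapped with HISAT2 2.0.4 and duplicates with the same tag were removed. Genes were then counted with HTSeq 0.6.1, and DESeq 1.10.1 is named without a role. The authors deposited FPKM, each count divided by gene length and library total. The build is not given in the sources used here, but the values fit mean isoform lengths of GENCODE M21 (GRCm38). The 2 tables held identical values, and 0 columns of values were left unused.

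Fragments were recovered as FPKM times that length and the library total. They were whole within 0.02 for all 67 genes and for 99.2% of 26193 genes with a fragment. In simulated libraries, made with known lengths and counting error alone, the recovery returned 3 of 3 totals. There, 100% of 200 genes changed 4-fold and 4.89% of 10521 unchanged genes exceeded the chi-square limit. These outcomes follow from how the libraries were simulated, so they check the calculation and not the choice of lengths. Library totals of 13959723 to 14423209 fragments set the counting error, which is all that the floor of 3 fragments covers. FPKM values are no counts, so no count model was fitted. Ratios were taken within libraries and tested by exact sign-flip permutation. The chi-square limit (2 degrees of freedom, 5% by chance) was applied as a description to genes with at least 20 fragments in all. With a library left out, the limit was that for the remaining libraries at the same 5%. Shared sequence was the percentage of distinct 75-nt words found, on either strand, in annotated transcripts of other genes. Python 3.11.15, numpy 2.4.6, pandas 2.3.3, scipy 1.17.1, numba 0.67.0, Biopython 1.88 and matplotlib 3.10.9 were used.

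All genes of the rule are named, with the highest and lowest of each other list. Members, pairs and lists were chosen with earlier results of these data known. Alternatives were other lengths, scalings, pseudocounts and limits, the median over libraries and leaving out each library. The longest coding isoform, the sum with Eif4a-ps4 and the other ratios under these lengths were added after the data were seen. Protein sequences and promoters were not used here.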

Additional observations from a re-analysis of the deposited data

How the results depend on the processing

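The longest isoform was a median of 1.96 times and, for Eif4g2, 6.08 times the length used. Of 114 recomputed values of the 14 pair ratios, 110 kept their sign and 4 reversed, and 15 lay over 1.5 times from the reported value, 11 with another length, 4 with a pseudocount and 0 without a library. These 4 were pairs with a gene at 0. A pseudocount of 1 gave log2 ratios of 13.12 for Eef1a1 over Eef1a2, 6.89 for Eif4e over Eif4e3 and 6.50 for Eif2s3x over Eif2s3y (16.43, 10.45 and 9.07 with the floor), and one of 0.1 gave 9.81 for the last. Of 43 other values of the comparisons, 30 were kept and 13 moved. Of 372 values of single genes, 256 stayed within 1 SD and 116 moved. For single genes and complex spans, kept meant within 1 SD of the reported mean. With 3 libraries, the median or the mean without a library cannot leave that range for the same genes. Values kept there therefore say nothing about stability. All single-gene values that moved came from another length, which genes with 1 isoform do not have. With the longest annotated or longest coding isoform alike, the log2 ratio of Eif4g2 over Eif4g1 went from 1.34 to -0.083 and that of Eif3j1 over Eif3j2 from 0.11 to -0.74, by the construction of these lengths. Eef1b2 over Eef1g turned from 1.10 to 0.869 in the same way. The log2 span of highest over lowest subunit became 0.40 (longest isoform) and 1.09 (longest coding isoform) for eIF2, 2.40 and 2.39 for eEF1B, and 2.27 for eIF2B and 5.34 for eIF3 under both. The median over all 67 genes, 77.4 FPKM, became 39.7 with the longest isoform, 41.1 with the longest coding isoform (66 genes), 112 after rescaling to 1000000 per library and 89.5 among the 61 genes at 1 FPKM or more. Without library 1, 5 genes were over the chi-square limit for the remaining libraries (the cause was not tested). Leaving out each library in turn gave 5 to 8 such genes, beside 6.8% to 8.85% of all genes. It reversed no pair ratio.

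No paired analysis was possible because the libraries share 1 condition. Genes at 0 are limited by depth, and the floor of 3 fragments per library set for them covers counting error alone. All values are relative levels of RNA, not of protein.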

Other observations

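Several translation factor genes also host small nucleolar RNAs, which guide modification of ribosomal RNA. A snoRNA gene lay inside, on the same strand as, 8 of the 61 protein-coding genes at 1 FPKM or more (13.1%), beside 1.78% of 10813 protein-coding genes at that level. These were Eif4a2 with 5 snoRNA genes, Eef1b2 and Eif4a1 with 3 each, Eif3a with 2, and Eef2, Eif4g1, Eif4g2 and Eif5 with 1 each. Their median level was 484 FPKM, beside 76.6 FPKM for the other 53 genes, and whether the snoRNA genes bear on the levels was not tested.

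Some of the genes are near each other in GRCm38. Eif4a1 and Eif5a lie 244 kb apart on chromosome 11, and Eif2b5, Eef1akmt4 and Eif4g1 lie together on chromosome 16, with gaps of 102 kb and 49.3 kb. Levels within the second group were unlike, at 43.7, 2.47 and 319 FPKM. Eef1akmt4 shared 27.4% of its words with other genes, mostly Gm49333, so its low level is less certain than those of its neighbours.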
